A study of Mus musculus with 19 samples.

Results

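Genes were compared by their enrichment in 2 progenitor populations of the mouse embryonic kidney, nephron progenitors and stromal progenitors. For each gene the difference in log2(mean + 1) between GFP+ and GFP− cells at E16.5 (E, embryonic day) was set against the difference between Foxd1+ and Foxd1− cells at E14.5. The means are of RPKM values (reads per kilobase of gene model, scaled to library depth). Of 20103 genes named in both deposited tables, 12034 had a mean of at least 1 in a group of each table and were compared. A gene was a member where it differed by at least 1 on this log2 scale in both comparisons, which 661 genes did. They fell into 4 classes by sign: 283 were higher in GFP+ and lower in Foxd1+ cells, 128 were lower in GFP+ and higher in Foxd1+ cells, 2 were higher in both and 248 were lower in both. Since these values chose the members, the differences in GFP and Foxd1 cells are given as a description, with no test.

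The GFP+ and GFP− cells (n = 3 libraries each) came from E16.5 kidneys of CFW mice with the Six2TGC/+ allele, in which Six2 regulatory sequence drives a GFP-Cre fusion. Foxd1+ and Foxd1− cells (n = 2 each) came from E14.5 kidneys of CFW mice with the alleles Foxd1Cre;Tdt, in which Foxd1-driven Cre switches on a red reporter that the descendants keep, so that Foxd1+ stands for a history of Foxd1 expression. A further pair, SIX2+ and SIX2− cells (n = 3 each), was sorted from nephrogenic zone cells (NZC, the rim where nephrons form) of E16.5 CFW kidneys with no allele given. These libraries are titled MARIS, a method for RNA from fixed cells stained inside for a protein. They took no part in choosing the members and served as the test of the GFP difference of each class, beside unsorted NZC (n = 3). All were mRNA sequencing libraries. Nothing in the labels ties the libraries to different animals, and a p-value here covers the spread among these libraries alone, possibly a technical one. The series compares nephron with stromal progenitors, but stage, reporter and table differ between the sorts and cannot be told apart from the cell type, so differences were taken within a table only.

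Nephron progenitors form the cap mesenchyme around the tips of the branching ureteric bud. The transcription factor SIX2 keeps them undifferentiated, and WNT signals turn some of them into the renal vesicle, from which podocytes and tubules arise. Stromal progenitors lie outside the cap, express the forkhead factor FOXD1, and give rise to interstitial fibroblasts, pericytes, smooth muscle and mesangium. Endothelial cells, macrophages and blood cells arise mainly outside both lineages.

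Promoter windows of 4 transcription factor genes, 2 from each opposed class, are shown to place the genes by which the populations are known. The 250 bases before the RefSeq start of Six2 and Uncx, from the GFP-high, Foxd1-low class, and of Foxd1 and Twist1, from the reverse class, are printed 5′ to 3′ on the gene's strand, with CG dinucleotides in capitals because methylation can act on them.
Six2: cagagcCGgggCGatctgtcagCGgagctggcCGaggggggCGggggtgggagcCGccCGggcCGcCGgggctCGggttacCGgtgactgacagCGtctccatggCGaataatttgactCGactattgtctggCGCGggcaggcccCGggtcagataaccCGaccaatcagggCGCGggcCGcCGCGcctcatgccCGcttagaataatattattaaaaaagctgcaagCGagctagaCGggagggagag
Uncx: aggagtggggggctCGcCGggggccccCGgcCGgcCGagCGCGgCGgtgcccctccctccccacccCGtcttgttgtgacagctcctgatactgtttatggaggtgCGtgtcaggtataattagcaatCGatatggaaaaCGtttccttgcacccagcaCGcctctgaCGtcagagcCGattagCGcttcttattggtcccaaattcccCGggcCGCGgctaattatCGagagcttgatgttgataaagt
Foxd1: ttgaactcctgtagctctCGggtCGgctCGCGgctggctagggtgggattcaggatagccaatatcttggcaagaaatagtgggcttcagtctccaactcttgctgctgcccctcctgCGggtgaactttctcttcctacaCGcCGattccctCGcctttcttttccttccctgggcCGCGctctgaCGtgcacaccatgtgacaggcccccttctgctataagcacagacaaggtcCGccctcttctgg
Twist1: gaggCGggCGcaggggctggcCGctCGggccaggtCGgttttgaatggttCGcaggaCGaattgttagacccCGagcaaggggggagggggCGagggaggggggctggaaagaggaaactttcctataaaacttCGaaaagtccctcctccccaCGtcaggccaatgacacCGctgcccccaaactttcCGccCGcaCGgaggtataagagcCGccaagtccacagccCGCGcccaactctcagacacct
These windows are from RefSeq on GRCm38.p6, at chr17:85688255-85688504 (minus strand) for Six2, chr5:139543648-139543897 (plus) for Uncx, chr13:98353995-98354244 (plus) for Foxd1 and chr12:33957421-33957670 (plus) for Twist1. They hold 26, 20, 12 and 18 CG dinucleotides. The words searched on both strands were GTAAACA, a forkhead word, TCANGTTTC, a SIX2-type word, and TATAAA, a core promoter word. TATAAA was in the window of Twist1 and in none of the other windows, and no window held GTAAACA or TCANGTTTC. Among the windows of 27025 genes the shares with a match were 3.54% for GTAAACA, 1.15% for TCANGTTTC and 14.3% for TATAAA. Among the 9234 genes compared that had a window they were 2.46%, 0.888% and 7.35%. A gene with several windows counted where any of them matched, whereas each of the 4 genes shown has 1 window. RefSeq windows could be matched to fewer than 80% of the members of each large class (68.1% in the low-in-both class), so a comparison of promoters between classes was void and none was made.

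Depth, estimated from the low values in M reads, ran from 26.6 to 46.1 in the E16.5 sorted libraries. It was 26.2 and 30.6 in Foxd1− but only 8.55 and 9.34 in Foxd1+ libraries, so low values in Foxd1+ cells are the least certain, and 13 members of the GFP-high, Foxd1-low class and 26 of the low-in-both class were listed at 0 in both. NZC replicate 2 was shallow (3.11). It enters the E16.5 filter and the shared variance, and the sums given for NZC.

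The labels were first checked on 4 marker genes. Six2 (ENSMUSG00000024134.11, GRCm38 chromosome 17, 85684277 to 85688274, minus strand) was at 312, 348 and 346 RPKM in GFP+ cells and at 2.70, 2.88 and 16.8 in GFP− libraries 1 to 3. In the E14.5 table it was at 0.650 and 2.14 in Foxd1+ and at 117 and 96.6 in Foxd1− libraries. The groups did not overlap in either table, and the differences were 5.31 and −5.49. GFP− library 3 held the most Six2 of its group, as did SIX2− library 3 (46.8, against 4.43 and 7.59). Pax2, a paired-box factor of the nephron and ureteric lineages (chromosome 19, 44756045 to 44837871, plus strand), was at 89.0, 62.2 and 111 in GFP+ against 3.79, 5.75 and 10.7 in GFP− cells. Its Foxd1+ libraries were at 0.348 and 0.470 and its Foxd1− libraries at 75.3 and 94.1, a difference of −5.93 against 3.51 in the GFP sort.

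Foxd1 (ENSMUSG00000078302.5, chromosome 13, 98354242 to 98359305, plus strand) was at 205 and 102 in Foxd1+ and 29.9 and 25.2 in Foxd1− libraries, a difference of 2.43. In the GFP sort it was lower in GFP+ cells by a smaller margin, at 44.3, 28.6 and 35.1 against 70.4, 62.5 and 103 (−1.11), so its transcript was well above 0 in GFP+ cells. Ntn1, the guidance ligand netrin-1 (chromosome 11, 68209364 to 68400823, minus strand), differed far more. It was at 0.680, 2.13 and 0.903 in GFP+ against 97.5, 108 and 202 in GFP− libraries, and at 200 and 141 in Foxd1+ against 28.3 and 33.6 in Foxd1− libraries, for differences of −5.93 and 2.42. Whether a low value means fewer cells of a type or less RNA per cell cannot be told apart in bulk samples.

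**Figure D1:**
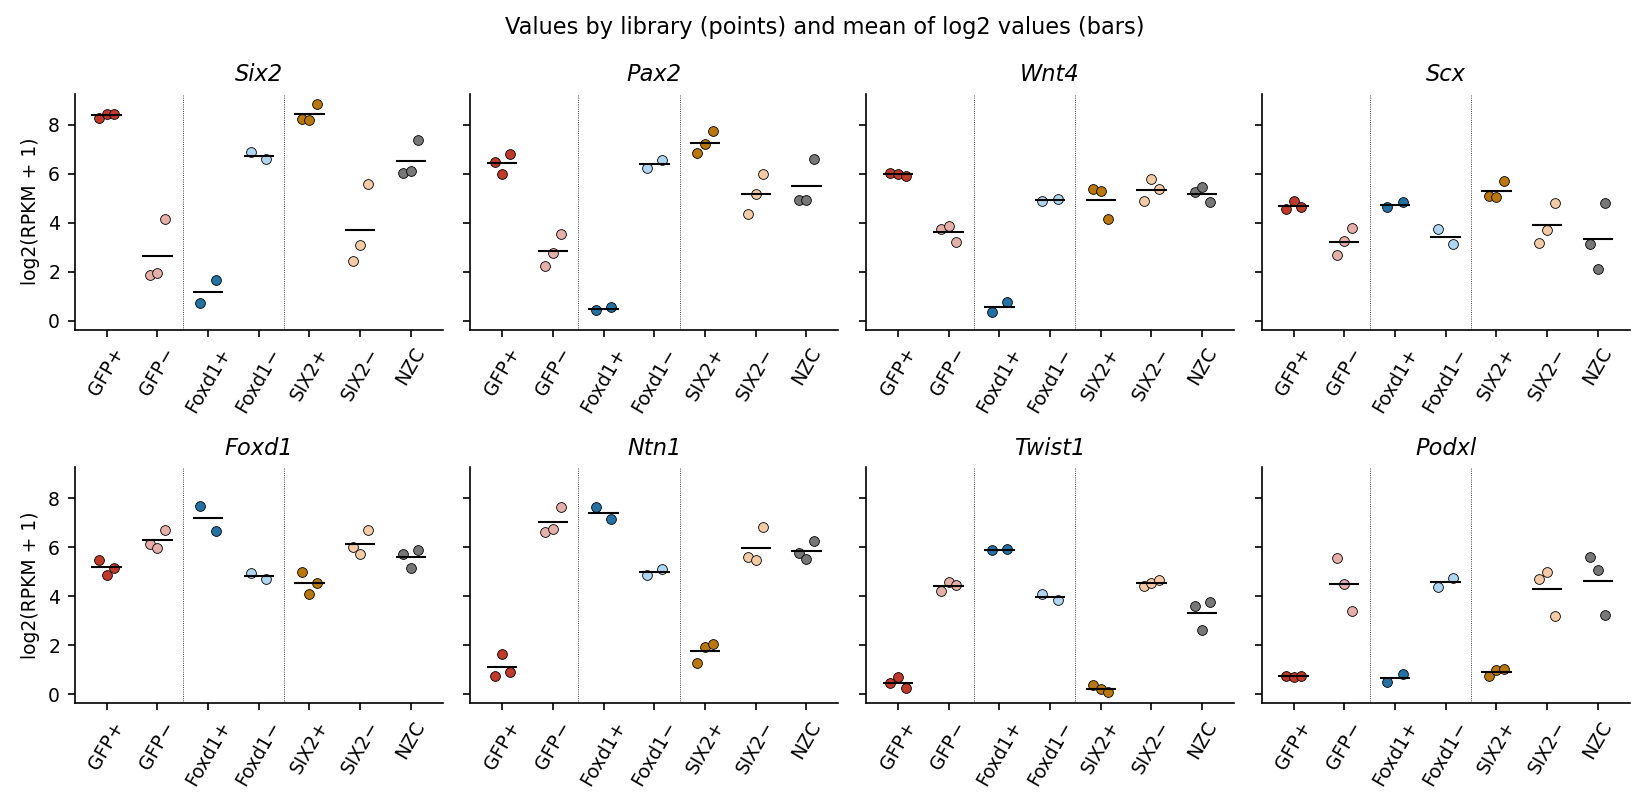
Values of 8 genes by library as log2(RPKM + 1) on the vertical axis, with 1 point per library and a bar at the mean of the log2 values. Dotted lines separate the GFP sort, the Foxd1 sort (a table of its own) and the antibody sort with NZC. Six2 and Pax2 are high in GFP+ and low in Foxd1+ cells, Foxd1, Ntn1 and Twist1 show the reverse, Scx is higher in both and Podxl lower in both, whereas Wnt4 overlaps between SIX2+ and SIX2− cells.

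Lists of marker genes were then summed in each library. The 26 nephron progenitor genes listed (25 of them compared) summed to 1779 to 1810 RPKM in GFP+ and 227 to 293 in GFP− libraries. In the Foxd1 sort they summed to 173 to 281 in Foxd1+ and 875 to 988 in Foxd1− libraries. The 24 stromal progenitor genes listed (23 of them compared) summed to 604 to 665 in GFP+ and 1948 to 2137 in GFP− libraries. Their sums were 2407 to 2527 in Foxd1+ and 1227 to 1407 in Foxd1− libraries. The groups did not overlap in any of these sums. Neither positive fraction was at 0 for the other lineage's list.

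A gene at least 1 higher in one positive fraction was seldom at least 1 higher in the other. Each negative fraction held markers of the other population, Six2 at 117 and 96.6 in Foxd1− and Ntn1 at 97.5, 108 and 202 in GFP− libraries. A gene high in one population can thus lower its difference in the other sort. How far this sets the class counts was not tested. Of 580 genes at least 1 higher in GFP+ cells (4.82% of all compared), 283 (48.8%) were at least 1 lower in Foxd1+ cells, 295 lay between −1 and 1 there, and 2 were at least 1 higher. The view from the other side was less symmetrical. Of 1345 genes at least 1 lower in GFP+ cells (11.2%), 128 (9.52%) were higher in Foxd1+ cells, 248 (18.4%) were lower there as well and 969 lay between. Of 216 genes higher in Foxd1+ cells (1.79%), 59.3% were lower in GFP+ cells, and of 968 lower in Foxd1+ cells (8.04%), 29.2% were higher and 25.6% lower in GFP+ cells. Across the 12034 genes, which are not independent and share libraries within each table, the differences correlated weakly (Pearson r = −0.17, Spearman rho = −0.16). With the limit raised to 2 in both comparisons, 62, 5, 0 and 51 genes remained in the GFP-high Foxd1-low, GFP-low Foxd1-high, high-in-both and low-in-both classes.

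The classes also differed in size of difference. Median differences in the GFP and Foxd1 sorts were 1.74 and −1.68 for GFP-high Foxd1-low genes, −2.28 and 1.27 for GFP-low Foxd1-high genes and −1.82 and −1.60 for low-in-both genes, against 0.10 and −0.03 over all 12034 genes. The GFP difference was the larger in size for 149 of the 283, 110 of the 128 and 153 of the 248 genes. With limma, 32.9% of all genes tested were called in the GFP sort and 8.44% in the Foxd1 sort. Of the 283 genes 279 were called higher in GFP+ (15.9% of all genes tested) and 263 of 280 tested were called lower in Foxd1+ cells (7.21%). For the 128 the counts were 126 lower in GFP+ (17%) and 92 higher in Foxd1+ cells (1.22%), and for low-in-both genes 224 of 245 and 172 of 214. GFP libraries did not overlap for 283 of the 283 (29% of genes compared were higher without overlap), and for 128 of the 128 and 243 of the 248 (23.5% lower). Foxd1 libraries did not overlap for 282 (31.4% lower), 122 (23.6% higher) and 244. The rule used these comparisons, so nothing is read from these counts. The Foxd1 sort has only 2 libraries a group, and its calls went from 1043 to 298 or 276 without Foxd1− library 1 or 2 and to 3378 without Foxd1+ library 1.

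**Figure D2:**
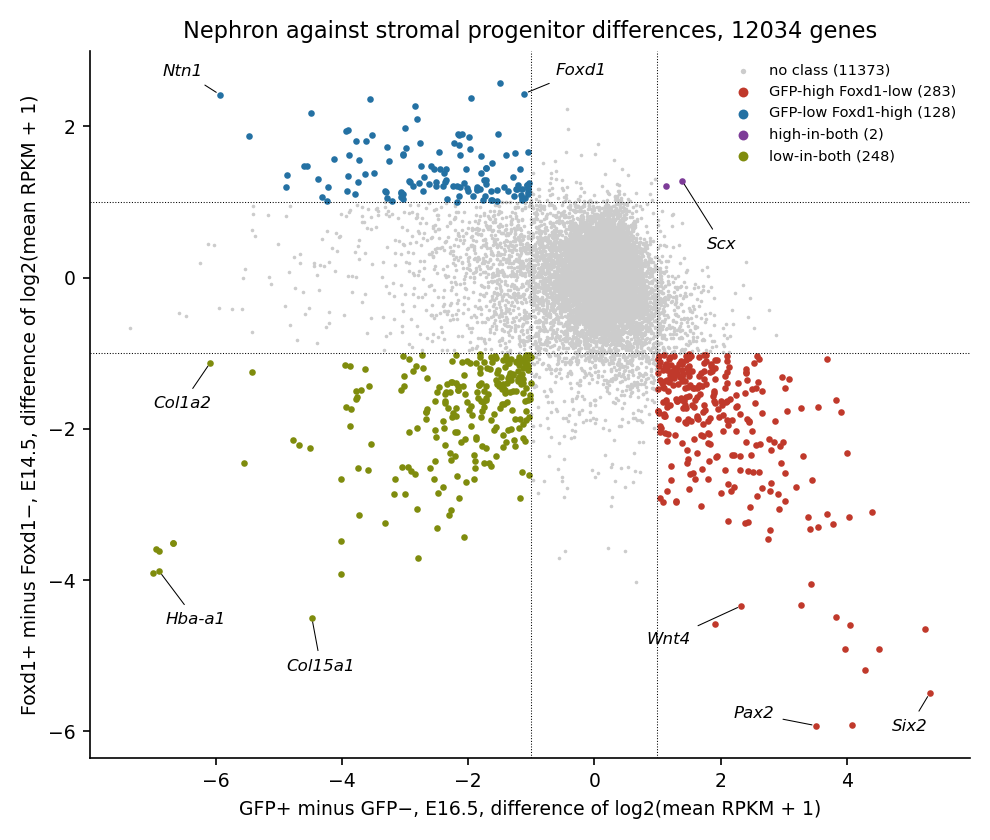
Each point is 1 of 12034 genes, with the difference in log2(mean RPKM + 1) of GFP+ minus GFP− cells (E16.5) on the horizontal and of Foxd1+ minus Foxd1− cells (E14.5) on the vertical axis. Dotted lines mark differences of 1, and colours the classes of 283, 128, 2 and 248 genes, of which the upper right corner holds 2.

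Six2 and Pax2 shared the GFP-high, Foxd1-low class with other regulators of transcription. Eya1, a phosphatase and partner of SIX2, was at 87.6, 70.1 and 84.0 in GFP+ against 2.47, 1.33 and 3.97 in GFP− libraries, and at 0.218 and 0.218 in Foxd1+ against 31.8 and 39.4 in Foxd1− libraries (4.51 and −4.91). Uncx, a homeobox factor, had one of the most negative Foxd1 differences, with 0.403 and 0.170 in Foxd1+ against 89.3 and 64.4 in Foxd1− libraries (4.08 and −5.92). Cited1, a coactivator of the least differentiated progenitors, was at 42.6, 57.0 and 29.7 in GFP+ against 0.511, 0.873 and 4.95 in GFP− libraries (3.83 and −4.49). No library of these groups overlapped with its counterpart, which the choice of leading genes required. In the antibody sort Cited1 reached 226, 213 and 339 in SIX2+ cells, above any of its GFP+ values. Its difference there was 4.87 ± 0.77 (limma estimate ± SE, adjusted p = 0.000291).

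Other leading members were not regulators of transcription. Crym, which encodes a thyroid hormone binding protein, was at 278, 364 and 208 in GFP+ against 5.74, 5.06 and 8.84 in GFP− libraries, and at 0.672 and 0.756 in Foxd1+ against 40.7 and 43.3 in Foxd1− libraries (5.24 and −4.65). Spock2, a secreted proteoglycan, had differences of 4.29 and −5.20. Col2a1, the main collagen of cartilage, had 3.97 and −4.91, at 87.2, 67.8 and 137 in GFP+ libraries. Of the 25 nephron progenitor genes compared, 14 were in this class and none in another, and 22 of the 25 were called higher in SIX2+ cells and none lower (median antibody difference 2.28, against 0.05 over all genes compared; 8.36% of all genes tested were called higher). Gdnf, the ligand by which the cap draws in the ureteric bud, was an exception among the others, with −0.68 in the GFP sort and 1.19 in the Foxd1 sort. It was named after its values were seen.

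Genes of signalling pathways were also in the class. Among 18 FGF pathway genes compared, the class held the ligands Fgf1, Fgf10 and Fgf20 and the feedback inhibitor Il17rd, and a receptor, Fgfr3 (named after its values were seen), was lower in both. Fgf20, which maintains nephron progenitors, was at 13.3, 17.2 and 15.1 in GFP+ against 0.207, 0.228 and 0 in GFP− libraries. It was listed at 0 in both Foxd1+ libraries, with 3.63 and 0.487 in Foxd1− libraries, so its Foxd1 difference (−1.61) rests on low values. Fgf10 was at 12.5, 13.95 and 10.5 in GFP+ against 1.03, 1.72 and 1.37 in GFP− libraries, and at 0.738 and 0.363 against 8.58 and 5.22 in the Foxd1 sort. All 4 rose in SIX2+ cells, by 3.23 ± 0.36 (Fgf1), 3.002 ± 0.34 (Fgf20), 1.60 ± 0.18 (Fgf10) and 1.05 ± 0.24 (Il17rd), with limma adjusted p-values of 1.24e-05, 1.52e-05, 1.60e-05 and 0.00464. In the whole list 7 genes were called higher and 3 lower in SIX2+ cells.

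Among 23 BMP and TGF-beta genes compared, 3 were in this class. Bmp7, a survival signal for the progenitors, was at 73.7, 59.1 and 64.8 in GFP+ against 7.37, 6.02 and 8.32 in GFP− libraries (3.02), and at 2.93 and 4.72 in Foxd1+ against 30.0 and 25.8 in Foxd1− libraries (−2.58). Bmper, a secreted BMP binding protein (3.01 and −1.47), and Ltbp1, which holds latent TGF-beta in the matrix (1.72 and −1.94), were the others. All 3 rose in SIX2+ cells, Bmp7 by 1.55 ± 0.21 (limma adjusted p = 8.84e-05), although the call of Ltbp1 (0.66 ± 0.18, adjusted p = 0.0138) was lost with TPM and without SIX2− library 1 or SIX2+ library 2, and the whole list of 23 had 3 called higher (8.36% over all genes) and 8 lower (15.9%). Tgfb3, a TGF-beta ligand, was the 1 list member with the reverse pattern (−1.75 and 1.29). It was at 46.4 and 32.6 in Foxd1+ against 15.04 and 16.2 in Foxd1− libraries, and lower in SIX2+ cells by 0.87 on the log2 scale (SE 0.25, limma adjusted p = 0.0203), a call lost without SIX2− library 3 or SIX2+ library 1 or 2.

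Receptors and guidance genes were divided between classes. Gfra1, the co-receptor of GDNF, which had been listed with the ureteric epithelium, was at 73.5, 54.3 and 65.7 in GFP+ against 2.60, 2.32 and 6.34 in GFP− libraries (3.78 and −3.25), and rose in SIX2+ cells (2.55 ± 0.28, limma adjusted p = 1.19e-05). The chemokine receptor gene Cxcr4 followed it (3.03 and −2.95). Slit1, a repellent ligand, was at 23.6, 15.2 and 31.7 in GFP+ against 0.609, 0.704 and 1.38 in GFP− libraries, and at 0.201 and 0.159 in Foxd1+ against 9.03 and 9.65 in Foxd1− libraries (3.69 and −3.13). Among 27 guidance genes compared, 3 were GFP-high and Foxd1-low, Ntn1 was the 1 with the reverse pattern, and 6 were low in both, among them the receptor gene Epha3 (−2.83 and −2.59) and the semaphorin gene Sema5a (−2.47 and −2.85). In SIX2+ cells 5 of the 27 were called higher and 11 lower, against 8.36% and 15.9% of all genes tested, the shares against which the counts for each list are to be read. Ntn1 was at 1.46, 2.79 and 3.20 in SIX2+ and 48.4, 43.8 and 113 in SIX2− libraries, a fall of 4.22 ± 0.38 (limma adjusted p = 1.42e-06).

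Hox genes were in this class or in none. Of 31 compared, 18 were at least 1 higher in GFP+ cells and 6 of these were also lower in Foxd1+ cells, while none was at least 1 higher in Foxd1+ or lower in GFP+ cells. The list's medians were 1.05 in the GFP and −0.22 in the Foxd1 sort. Hoxd12 had the largest GFP difference of the 6, at 22.9, 18.7 and 19.6 against 0.755, 0.674 and 1.08 (3.54), with 1.54 and 1.12 in Foxd1+ against 8.52 and 4.79 in Foxd1− libraries (−1.71). The other 5 were Hoxb3, Hoxb4, Hoxb5, Hoxb8 and Hoxb9, on chromosome 11 between 96271457 and 96347930, plus strand. Hoxb9 was at 39.9, 25.4 and 33.8 in GFP+ against 5.61, 3.38 and 6.71 in GFP− libraries (2.45), and at 6.83 and 6.37 in Foxd1+ against 30.2 and 24.7 in Foxd1− libraries (−1.90). Hoxb3 and Hoxb5 were named after their values were seen, and Hoxb5 is overlapped by the antisense gene Hoxb5os, also a member. Whether reads were counted by strand is not given in the sources used here, so the values of these overlapping genes are uncertain. In SIX2+ cells 21 of the 31 were called higher and none lower (median 0.95), Hoxd12 by 2.70 ± 0.30 and Hoxb9 by 1.96 ± 0.30 (limma adjusted p = 1.30e-05 and 0.000199). The list had been chosen with such values known.

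The antibody sort gave the test in libraries the rule had not used. It sorts on SIX2, as the GFP sort does through Six2 regulatory sequence. It therefore bears on the GFP difference of each class and cannot test the Foxd1 difference. The shares set beside its counts are over all genes, not over genes chosen by their GFP difference. Of the 283 GFP-high, Foxd1-low genes 224 (79.2%) were called higher in SIX2+ than SIX2− cells with limma, against 8.36% of all genes tested (24.2% in either direction), and 246 did not overlap between the groups, against 22.6%. Their median antibody difference was 1.33, against 0.05 over all genes compared. A further 57 were not called and 2 were called lower, Enpp2, a secreted lysophospholipase (−0.83 ± 0.27, adjusted p = 0.0379), and Scube3, a secreted signalling cofactor (−1.02 ± 0.27, adjusted p = 0.0126). Enpp2 averaged 7.21 ± 2.11 in SIX2+ against 13.9 ± 4.73 in SIX2− cells, and Scube3 3.41 ± 1.49 and 7.87 ± 2.33 (mean ± SD, n = 3). They were named after their values were seen. The count of 224 was 199 to 218 with any 1 SIX2 library left out.

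Several genes of nephron induction differed in the GFP sort but were not called in the antibody sort. Wnt4, a signal that starts nephron formation, was at 65.3, 62.0 and 59.1 in GFP+ against 12.4, 13.8 and 8.45 in GFP− libraries, and at 0.303 and 0.714 in Foxd1+ against 28.5 and 30.7 in Foxd1− libraries (2.33 and −4.34). In SIX2+ cells it was at 40.4, 38.4 and 16.8 and in SIX2− cells at 28.6, 53.9 and 40.3, groups that overlapped (−0.40 ± 0.30, limma adjusted p = 0.402). Pax8, a paired-box factor of the induced nephron, was named after its values were seen. It had a mean of 53.2 in GFP+ and 13.4 in GFP− cells, but 38.0 in SIX2+ and 50.1 in SIX2− cells. No test of the difference between the sorts is given, since the GFP values had chosen the genes. Of 19 early differentiating nephron genes compared, 5 were GFP-high and Foxd1-low, 1 had the reverse pattern and 4 were low in both, and 2 were called higher and 12 lower in SIX2+ cells. Notum, which inactivates Wnt ligands, overlapped in the antibody sort as well (−0.16 ± 0.49, limma adjusted p = 0.871), and its sign there turned with quantile normalisation.

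**Figure D3:**
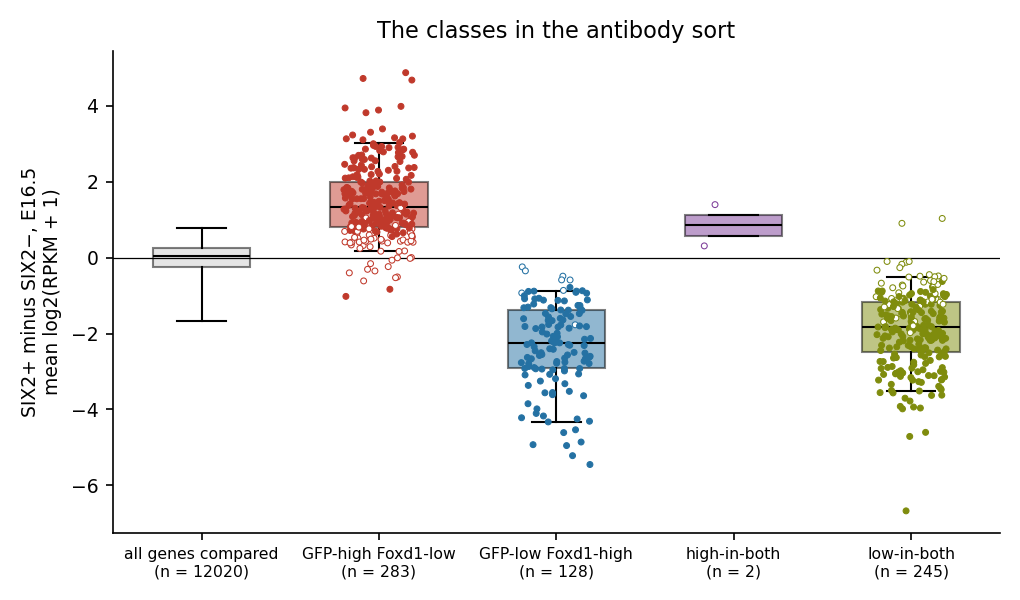
Difference of SIX2+ minus SIX2− cells in mean log2(RPKM + 1) for all genes compared and for each class. Boxes show the quartiles and median, whiskers the 5th and 95th percentiles, and each point is a member, filled where limma called it. The medians are 0.05 for all genes and 1.33, −2.25, 0.85 and −1.83 for the classes of 283, 128, 2 and 245 genes tested.

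The GFP-low, Foxd1-high class was led by secreted and signalling proteins with Ntn1 in front. Igfbp6, an IGF-II binding protein, was at 1.66, 2.37 and 1.18 in GFP+ against 21.9, 26.4 and 45.4 in GFP− libraries, and at 24.0 and 38.5 in Foxd1+ against 4.49 and 6.04 in Foxd1− libraries (−3.56 and 2.36). C1qtnf2, a secreted C1q-domain protein, was listed at 0, 0.423 and 0 in GFP+ against 19.0, 15.1 and 40.1 in GFP− libraries (−4.50 and 2.17). Fibin, another secreted protein, had −3.90 and 1.95. In none of these did the groups of the GFP or Foxd1 sort overlap, which the choice of named genes required. Twist1, a mesenchymal basic helix-loop-helix factor, was nearly without transcript in GFP+ cells, at 0.375, 0.645 and 0.190 against 17.8, 22.7 and 20.8, and stood at 58.0 and 60.6 in Foxd1+ against 15.9 and 13.6 in Foxd1− libraries (−3.93 and 1.94).

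Some retinoid and hedgehog genes were in this class, which held 128 of all 12034 genes compared. None was in the other opposed class, which held 283 of the 12034, and with 22 genes listed this is not read as a contrast. Crabp1, which binds retinoic acid in the cytoplasm, was at 3.43, 4.79 and 3.13 in GFP+ against 32.5, 30.6 and 36.7 in GFP− libraries, and at 122 and 143 in Foxd1+ against 28.9 and 24.7 in Foxd1− libraries (−2.84 and 2.27). Dhrs3, which reduces retinaldehyde and so limits retinoic acid, had −2.78 and 1.26, and Boc, a hedgehog co-receptor, −1.64 and 1.03. Boc was just past the limit in the Foxd1 sort, at 79.8 and 60.6 against 27.0 and 40.6. Of 22 genes of these pathways compared, 3 were in the class, none in another, and 1 was called higher and 10 lower in SIX2+ cells, Crabp1 by 3.37 ± 0.14 (limma adjusted p = 1.91e-09). The list's medians were −1.01 in the GFP and 0.43 in the Foxd1 sort. Among Wnt genes the class held the antagonists Dkk1 (−3.92 and 1.15) and Sfrp1 (−4.32 and 1.06), both named after their values were seen, whereas Rspo1, which strengthens Wnt signals, was GFP-high and Foxd1-low (4.05 and −4.60). Apcdd1, a Wnt inhibitor at the membrane, was low in both (−2.66 and −1.32). Of 25 Wnt genes compared 4 were called higher in SIX2+ cells and 13 lower.

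Immediate early genes, which respond within minutes to cell handling, contributed 2 members of uncertain standing. Klf2 was at 15.2 and 168 in Foxd1+ and 6.72 and 38.5 in Foxd1− libraries, and Atf3 at 12.6 and 69.6 against 5.36 and 24.9, so for both the groups overlapped and library 2 of each group was the higher. The Foxd1 difference was 1.97 for Klf2 and 1.38 for Atf3, and without Foxd1+ library 2 it was −0.54 and −0.24. The 20 genes of the list summed to 997 to 1884 in Foxd1+ and 607 to 1348 in Foxd1− libraries. The part of cell handling in the values was not tested.

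Of the 128 genes of the class, 120 (93.8%) were called lower in SIX2+ cells with limma, against 15.9% of all genes tested, and none higher. Groups did not overlap for 124, against 23.5% of the genes compared, and the median antibody difference was −2.25. The other 8 were not called, among them Il33, Hspb1 and Nrgn, named after their values were seen. Twist1 was at 0.291, 0.161 and 0.0566 in SIX2+ and 20.7, 22.1 and 24.6 in SIX2− libraries and fell by 4.33 ± 0.25 (limma adjusted p = 1.85e-08). Foxd1 itself was at 30.6, 15.999 and 22.2 in SIX2+ and 63.9, 51.4 and 103 in SIX2− libraries and fell by 1.61 ± 0.30 (limma adjusted p = 0.000984). The count of 120 was 114 to 118 with any 1 SIX2 library left out.

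The stromal lists did not sit in this class as a block. Of 23 stromal progenitor genes compared, 20 were at least 1 lower in GFP+ cells, but only 8 were at least 1 higher in Foxd1+ cells, and 7 were in the class. Zeb2, Alx1 (named after its values were seen) and Dcn were low in both, although listed as stromal. Zeb2, a repressor of epithelial genes that other mesenchymal cells also express, was at 10.8 and 10.1 in Foxd1+ against 32.0 and 42.6 in Foxd1− libraries. Of 18 interstitial matrix genes, 17 were lower in GFP+ cells and none was higher in Foxd1+ cells. The collagen gene Col1a2 was at 7.27, 9.09 and 7.18 in GFP+ against 754, 603 and 440 in GFP− libraries, but at 390 and 235 in Foxd1+ and 581 and 786 in Foxd1− libraries (−6.08 and −1.13). The proteoglycan genes Dcn (−5.43 and −1.25) and Lum (−4.51 and −2.25) were the other matrix genes low in both, and 14 were lower in the GFP sort alone. The list summed to 2622 to 3302 in Foxd1+ and 3367 to 4712 in Foxd1− libraries. It was 186 to 202 in GFP+ and 3374 to 4919 in GFP− libraries. In SIX2+ cells 17 of the 18 were called lower and 1 higher, and 21 of the 23 stromal progenitor genes lower and none higher.

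Only Scx and Mlf1 were at least 1 higher in both GFP+ and Foxd1+ cells. Scx encodes scleraxis, a basic helix-loop-helix factor of tendon, and lies on chromosome 15, 76457452 to 76459458, plus strand. It was at 22.7, 28.4 and 23.8 in GFP+ against 5.39, 8.60 and 12.7 in GFP− libraries, and at 24.1 and 27.9 in Foxd1+ against 12.5 and 7.72 in Foxd1− libraries (1.39 and 1.28). Neither table had overlapping groups for it, which was a condition for naming it as a leading gene. In the antibody sort it was at 33.4, 32.7 and 51.7 in SIX2+ and 7.99, 12.2 and 27.3 in SIX2− libraries, which did not overlap, and missed the call (1.40 ± 0.54, limma adjusted p = 0.0780). It was called with only the compared groups in the fit (0.0298), with a replicate block (0.0139), without NZC replicate 2 (0.0270) and without SIX2− library 3 (0.0289). Mlf1, named after its values were seen, was at 1.54 and 24.8 in Foxd1+ and 4.08 and 6.19 in Foxd1− libraries. Those groups overlap, and 1 library makes its Foxd1 difference. It was not called in the antibody sort (0.31 ± 0.58, limma adjusted p = 0.775).

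The low-in-both class held 7 of 11 podocyte, 8 of 13 endothelial, 12 of 13 leukocyte and 8 of 8 erythroid genes compared, and with quantile normalisation 4, 6, 12 and 8 of them. Podxl, the podocalyxin gene of podocytes and endothelium, was at 0.661, 0.644 and 0.699 in GFP+ against 46.3, 21.7 and 9.59 in GFP− libraries, and at 0.435 and 0.779 in Foxd1+ against 20.2 and 26.3 in Foxd1− libraries (−4.01 and −3.91). Col15a1, a collagen of vessel basement membranes, was at 0.314, 0.385 and 0.274 in GFP+ against 42.7, 30.3 and 12.3 in GFP− libraries (−4.47 and −4.50). Both groups of negative libraries stood well above the positive ones. Of 11 podocyte genes compared 7 were in the class, among them the slit diaphragm gene Nphs1 (−1.84 and −1.59), and 9 were called lower in SIX2+ cells and none higher. Of 7 tubule genes 3 were in the class and 6 were called lower in SIX2+ cells, and of 8 ureteric genes 2 were in it, Calb1 (−1.71 and −1.44) and the keratin gene Krt8 (−1.20 and −1.16), with 4 called lower and 2 higher.

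Leukocyte genes gave 12 of 13 compared to this class. Csf1r, the receptor that macrophages need, was at 0, 0.384 and 0 in GFP+ against 8.34, 10.4 and 8.68 in GFP− libraries, and at 0.354 and 0.551 in Foxd1+ against 5.11 and 14.1 in Foxd1− libraries (−3.17 and −2.87). The complement gene C1qc (−3.32 and −3.24) and the adaptor genes Tyrobp (−3.16 and −2.66) and Fcer1g (−2.90 and −2.56) followed. The list summed to 2.87 to 15.7 in GFP+ and 101 to 151 in GFP− libraries, and to 11.9 to 17.2 in Foxd1+ and 49.8 to 135 in Foxd1− libraries. Tyrobp was listed at 0 in both Foxd1+ libraries. In SIX2+ cells 12 of the 13 were called lower, Csf1r by 2.87 ± 0.19 (limma adjusted p = 6.01e-08). Of 13 endothelial genes, 8 were in the class and 12 were called lower in SIX2+ cells, among them the vascular cadherin gene Cdh5 at 0.0589, 0.354 and 0.0389 in GFP+ against 7.88, 9.43 and 7.27 in GFP− libraries (−3.00 and −2.87).

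Globins had the most negative GFP differences of the low-in-both genes. Hba-a1 was at 14.2, 14.9 and 3.55 in GFP+ against 241, 1477 and 2512 in GFP− libraries, and at 3.54 and 35.8 in Foxd1+ against 64.4 and 543 in Foxd1− libraries (−6.89 and −3.88). In the antibody sort it was at 0.403, 0.791 and 0.0847 in SIX2+ and 4.17, 5.44 and 1.25 in SIX2− libraries (−1.59 ± 0.94, limma adjusted p = 0.266), groups that did not overlap. With only the compared groups in the fit Hba-a1 (adjusted p = 0.0153) and Hbb-b1 (0.00573) were called lower, with a pseudocount of 0.1 Hbb-b1 (0.0225), Hbb-bs (0.0265) and the identical Hbb-b2 and Hbb-bt (0.0446), and with TPM Hbb-b1 (0.0464). All 8 erythroid genes compared were in the class and none was called in SIX2+ cells in the fit of all groups, where the list summed to 0.969 to 2.91 against 6.35 to 23.9 in SIX2− libraries and 447 to 4722 in NZC. Globin genes have near copies that can share reads, and Hbb-b2 and Hbb-bt hold identical values, and single globin genes are uncertain. The part of red cells in the GFP− and Foxd1− values was not tested.

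Genes of mural cells, which descend from the stroma, were also low in both or lower in the GFP sort alone. Of 14 mural and smooth muscle genes compared 4 were low in both, 7 were lower in the GFP sort alone, and 11 were called lower in SIX2+ cells. Myh11, smooth muscle myosin, was at 0.350 and 0.268 in Foxd1+ and 1.76 and 12.8 in Foxd1− libraries (−4.02 and −2.66). Ren1, renin, was at 0.790 and 7.27 in Foxd1+ and 3.01 and 25.6 in Foxd1− libraries, groups that overlapped, and its Foxd1 difference of −1.60 turned to 0.33 without Foxd1− library 2. Des, the desmin gene, was the exception in the list and GFP-high and Foxd1-low, at 57.3, 67.1 and 53.8 in GFP+ against 16.7, 14.4 and 7.93 in GFP− libraries (2.11 and −1.63), and it rose in SIX2+ cells (1.44 ± 0.24, limma adjusted p = 0.000523). In all, 194 of 245 low-in-both genes tested (79.2%) were called lower in SIX2+ cells and none higher, against 15.9% of all genes tested, with a median of −1.83, and 3 were not tested for low values. The groups did not overlap for 236 of the 248, against 23.5%.

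**Figure D4:**
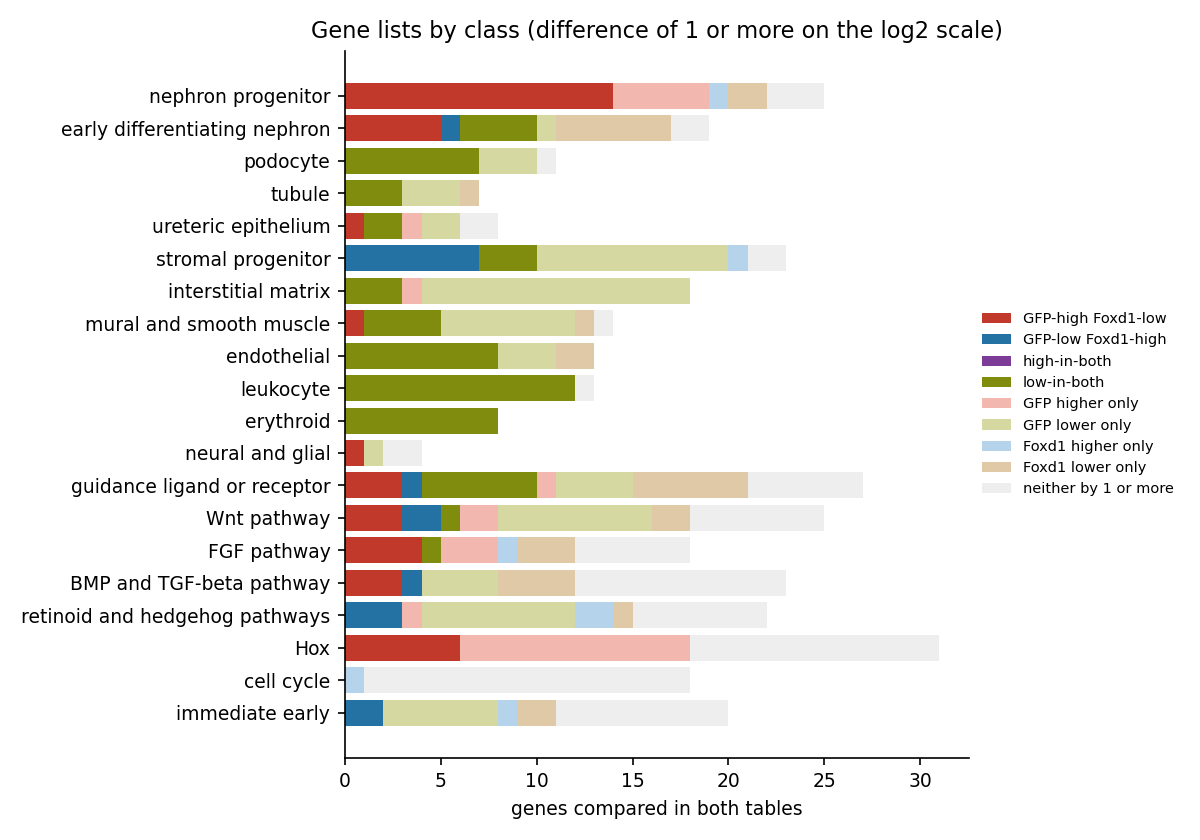
Number of genes compared in each of 20 lists (horizontal axis), coloured by class or, in paler colours, by the 1 comparison in which a gene differed by at least 1. Nephron progenitor genes are GFP-high and Foxd1-low in 14 of 25 cases, all 8 erythroid and 12 of 13 leukocyte genes are low in both, and interstitial matrix genes are mostly lower in the GFP sort alone (14 of 18).

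Some lists contributed little. None of 18 cell cycle genes was in a class, against 661 of all 12034 genes compared, so nothing is read from this count. Their medians were −0.12 in the GFP and 0.30 in the Foxd1 sort. Ccnb2, cyclin B2, came nearest to a class, at 44.1, 56.8 and 40.3 in GFP+ against 59.3, 75.4 and 70.7 in GFP− libraries and 89.4 and 106 in Foxd1+ against 55.4 and 54.4 in Foxd1− libraries (−0.53 and 0.82). It fell by 0.52 ± 0.14 in SIX2+ cells (limma adjusted p = 0.0161), a call lost without SIX2− or SIX2+ library 2. Of 4 neural and glial genes compared, Elavl4, a neuronal RNA binding protein, was GFP-high and Foxd1-low (1.60 and −1.62).

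Some genes lay close to the limit of 1. Just inside it were Rubie (smaller difference 1.001) and Dock9 (1.002) in the GFP-high Foxd1-low class, Epb41l3 (1.003) and Gbgt1 (1.01) in the GFP-low Foxd1-high class and Il1rap (1.005) and Hhex (1.01) in the low-in-both class. Just outside were 2010111I01Rik (0.9987), Ptpn14 (0.996), Vgll3 (0.9987), Camk2n1 (0.998), Nid2 (0.997), Nfat5 (0.996) and, for the class higher in both, Hist1h2ai (0.96) and Snhg8 (0.92).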

How the data were processed

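The authors deposited 2 tables of normalised values per gene, 1 for 15 libraries of E16.5 and 1 for 4 libraries of E14.5. The deposited values are titled TPM but behave as RPKM: column sums ran from 338724 to 428995 and from 341435 to 452553, and weighting by exonic length (GENCODE M21) cut their coefficient of variation from 8.01% and 13.8% to 1.91% and 1.56%. The design had assumed TPM; the test is the same. TopHat2, Partek and mm10 are named in the submitters' processing notes, without versions or roles. The labels name the RecoverAll and RNeasy Micro kits without saying which served which library. Names turned into dates (27 a table) were dropped and lines of 1 name summed. Depth was estimated from the steps of low values. Only 56.8% to 66.4% of those values lay within 0.1 of a whole read, so reads were not recovered and no count model was used.

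Tests used limma 3.58.1 (R 4.3.3) with an intensity trend on log2(RPKM + 1), two-sided, with Benjamini-Hochberg adjustment over all genes tested and calls at an adjusted p below 0.05. This scale understates changes of low genes. Genes entered with RPKM of 1 or more in 3 or more E16.5 libraries (12798 genes, 5 group means, 10 residual degrees of freedom) or 2 or more E14.5 libraries (12364 genes, 2 residual degrees of freedom). Class differences are of log2(mean + 1), whereas antibody differences are limma estimates ± SE. The members, and the 20 gene lists, were chosen with earlier results of these data known. Named genes are the 4 markers, the 8 of each class with the largest smaller difference (mean of at least 5, no overlap, no predicted gene), up to 4 members of each list, and 2 on each side of the limit. Same-numbered libraries deviated together (correlations 0.45, 0.44 and 0.39 for GFP, 0.64, 0.28 and 0.68 for the antibody sort). Whether the number stands for a shared source or a shared batch cannot be told from these values. The main fit takes no account of it, and the replicate block does. Alternatives were other pseudocounts, filters, scalings and fits, a replicate block, leaving out each library of the groups compared, and leaving out NZC replicate 2. Code was tested on simulated data. Promoter windows were read from RefSeq.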

Additional observations from a re-analysis of the deposited data

Results flagged for a closer look

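Scube3, a secreted signalling cofactor and a member of the GFP-high, Foxd1-low class, moved in opposite directions in the GFP and antibody sorts in every library. It was at 33.8, 22.3 and 32.1 RPKM in GFP+ against 15.05, 15.7 and 10.6 in GFP− libraries. In the antibody sort it was at 2.45, 5.13 and 2.65 in SIX2+ against 5.18, 9.13 and 9.30 in SIX2− libraries (−1.02 ± 0.27, limma adjusted p = 0.0126). The highest SIX2+ and the lowest SIX2− library lay close together, and the difference between the sorts has no valid test here and was not tested, since the GFP values had chosen the gene. The sorts differ at once in allele, in starting cells (kidney or nephrogenic zone), in how cells were marked and in the MARIS method. These cannot be told apart.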

How the results depend on the processing

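Class sizes of GFP-high Foxd1-low, GFP-low Foxd1-high, high-in-both and low-in-both genes (283, 128, 2 and 248) depended most on the pseudocount and the scaling. A pseudocount of 5 left 98, 58, 1 and 56 genes. A pseudocount of 0.1 gave 9 high in both and 396 low in both, and kept all members. A minimum mean of 5 gave 183 GFP-high Foxd1-low and 94 low-in-both genes. Rescaling to TPM, which moved the median Foxd1 difference of all genes by −0.25, gave 466, 4 high in both and 597 low in both, and kept 103 of the 128. Rescaling also raised every value above 0 while the pseudocount and the minimum mean stayed at 1, so both were lower in effect. The parts of scaling, pseudocount and filter in these counts were not told apart. Quantile normalisation gave 7 high in both, and means of log2 values gave 1. Leaving out each library in turn gave 268 to 330, 115 to 190, 2 to 9 and 182 to 297.

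The Foxd1 calls (1043, of which 151 higher and 892 lower) became 522 with a minimum of 5, 229 with no filter, 2307 with a replicate block (614 higher and 1693 lower) and 276 to 3378 with 1 library left out. Quantile normalisation split them into 218 higher and 564 lower, and the antibody calls (1070 and 2031) into 1567 and 1684. TPM split the GFP calls (2033 and 2176) into 1392 and 2528. With 1 library of the compared groups left out GFP calls were 3067 to 3588 and antibody calls 2253 to 2794. Without NZC replicate 2, the shallow library, they rose to 5673 and 4184.

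The members called in the antibody sort (224, 120, 0 and 194) became 124 of 148 tested (in place of 194 of 245) for low-in-both genes with a minimum of 5, and 1 high-in-both gene was called with only the compared groups, with the replicate block and without NZC replicate 2. They were 199 to 218, 114 to 118, 0 to 1 and 161 to 204 with 1 SIX2 library left out, and 242, 124, 1 and 200 without NZC replicate 2. Same-numbered Foxd1 libraries also deviated together (correlation 0.40), and what the number stands for is not known there either. Cdh4, a cadherin gene of the GFP-high Foxd1-low class, lost its antibody call (limma adjusted p = 0.0295) with the block (0.0529). The block ended no other antibody call named. The call of Cdh4 was also lost with TPM (0.0690) and without SIX2− library 1 (0.156) or 3 (0.0606). Leaving out SIX2+ library 1 (0.0738), 2 (0.0876) or 3 (0.0611) ended it as well.

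Foxd1 differences ran from −0.54 to 3.59 (Klf2), −0.24 to 2.73 (Atf3) and −3.09 to 0.33 (Ren1) with 1 library left out, turning sign without Foxd1+ replicate 2 (Klf2, Atf3) or Foxd1− replicate 2 (Ren1). The antibody difference of Notum (−0.16) turned to 0.076 with quantile normalisation and ran from −0.47 to 0.33 with 1 library left out, positive without SIX2− replicate 1 or SIX2+ replicate 3. The cause of these changes was not tested. Low depth in Foxd1+ libraries limits values near 0.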
